A study of Caenorhabditis elegans with 10 samples.

Results

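C-type lectin genes of *Caenorhabditis elegans* are examined here in 4 Met/SAM cycle mutants and their parent strain. Members were all genes whose symbol is *clec-* followed by a number and whose mean over the 10 libraries was at least 1 TPM (an abundance scaled by transcript length and by the library total). Of 240 *clec* genes among the 46903 genes of the table, 95 met this minimum, 145 did not, and 23 of those 145 were listed at 0 in all libraries. All 95 are annotated as protein coding. The compared strains are the *mthf-1(ww50)* mutant, the *sams-1(ww51)* mutant, the *metr-1(ww52)* mutant and the *mtrr-1(ww56)* mutant, named here by their mutated gene, and the strain they are set against is the *Pacdh-1::GFP;Δnhr-10* parent. All 5 strains share an integrated reporter (GFP under the *acdh-1* promoter) and the deletion *nhr-10(tm4695)*. The mutants came from a chemical (EMS) mutagenesis screen for reporter activation in the presence of vitamin B12 and were backcrossed to the parent. Each mutation is represented by a single allele, so that other variants left from mutagenesis cannot be told apart from the named mutation. Animals were grown on *E. coli* OP50 with 20 nM vitamin B12 for 48 h and collected around the L4 to young adult stage, with 2 biological replicates per strain, each a pool of whole animals. In such bulk samples, fewer cells of a type and less RNA per cell cannot be told apart.

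C-type lectin domain proteins form one of the largest gene families of the worm. Many are predicted to be secreted, many are made in the intestine, and sets of them change when animals meet bacterial pathogens, so they serve as readouts of innate immune activity. Others are made in the germ line, the epidermis or neurons, and most have no assigned ligand. The Met/SAM cycle produces S-adenosylmethionine, the methyl donor used for phosphatidylcholine and histone methylation. METR-1 is methionine synthase, MTRR-1 its reductase, MTHF-1 supplies its methyl-folate and SAMS-1 makes S-adenosylmethionine from methionine.

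TPM sums to a fixed total in every library and keeps no depth, so no counting error is given. Replicates correlated at 0.919 to 0.965 across genes on the log2(TPM + 1) scale. The 4 mutated genes were each higher in all 8 mutant libraries than in the parent libraries, so levels do not check these point mutants' labels, and *nhr-10* was listed at 3.13 to 6.19 TPM. Lists of tissue and stage genes differed between strains. The summed TPM of 16 cuticle and molting genes was 1695 to 7889 in mutant libraries, against 427 to 1091 in parent libraries, and that of 12 intestinal genes was 1152 to 1727 in mutant libraries, against 1675 to 2151 in parent libraries. Lists also differed between replicate numbers. Summed yolk genes were at 147 to 1140 TPM in the replicate 1 libraries and 1548 to 4121 in the replicate 2 libraries, and 13 oocyte genes at 101 to 664 in replicate 1 and 381 to 1629 in replicate 2. No gene of these 4 lists was at 0 in any library.

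*clec* transcripts were unevenly spread over the family. The summed TPM of the 95 genes was 4740 and 4253 in *mthf-1*, 5739 and 7069 in *sams-1*, 4825 and 4198 in *metr-1* and 5950 and 4778 in *mtrr-1*, against 5105 and 4774 in the parent. *sams-1* replicate 2 had the highest sum, and each of the other 3 mutants had at least 1 library within or below the parent's range. *clec-63* alone made up 45.7% of the mean *clec* TPM, and the 8 highest genes made up 71.3%. The median *clec* gene had a mean of 6.79 TPM, below the median of 13.7 TPM over all 14418 genes at or above the minimum.

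The level of *clec-63* was 2202 and 1727 TPM in *mthf-1*, 2741 and 3530 in *sams-1*, 2252 and 1773 in *metr-1* and 2800 and 2064 in *mtrr-1*, against 2306 and 2135 in the parent. Both *sams-1* libraries were above both parent libraries, and the other mutants overlapped the parent. Next in level were *clec-50* at a mean of 525 TPM, *clec-83* at 214, *clec-150* at 125, *clec-48* at 123, *clec-41* at 123, *clec-87* at 105 and *clec-65* at 96.8. The neighbours *clec-150*, *clec-48* and *clec-41* in this order do not differ beyond the spread of their libraries. In all, 7 genes had a mean of at least 100 TPM, 42 of at least 10 TPM and 18 of under 2 TPM, and 94 were above 0 in every library. *clec-144* (1.2 TPM), *clec-245* (1.18) and *clec-233* (1.09) were just inside the minimum, and *clec-31* (0.987), *clec-21* (0.96) and *clec-12* (0.913) just outside.

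**Figure D1:**
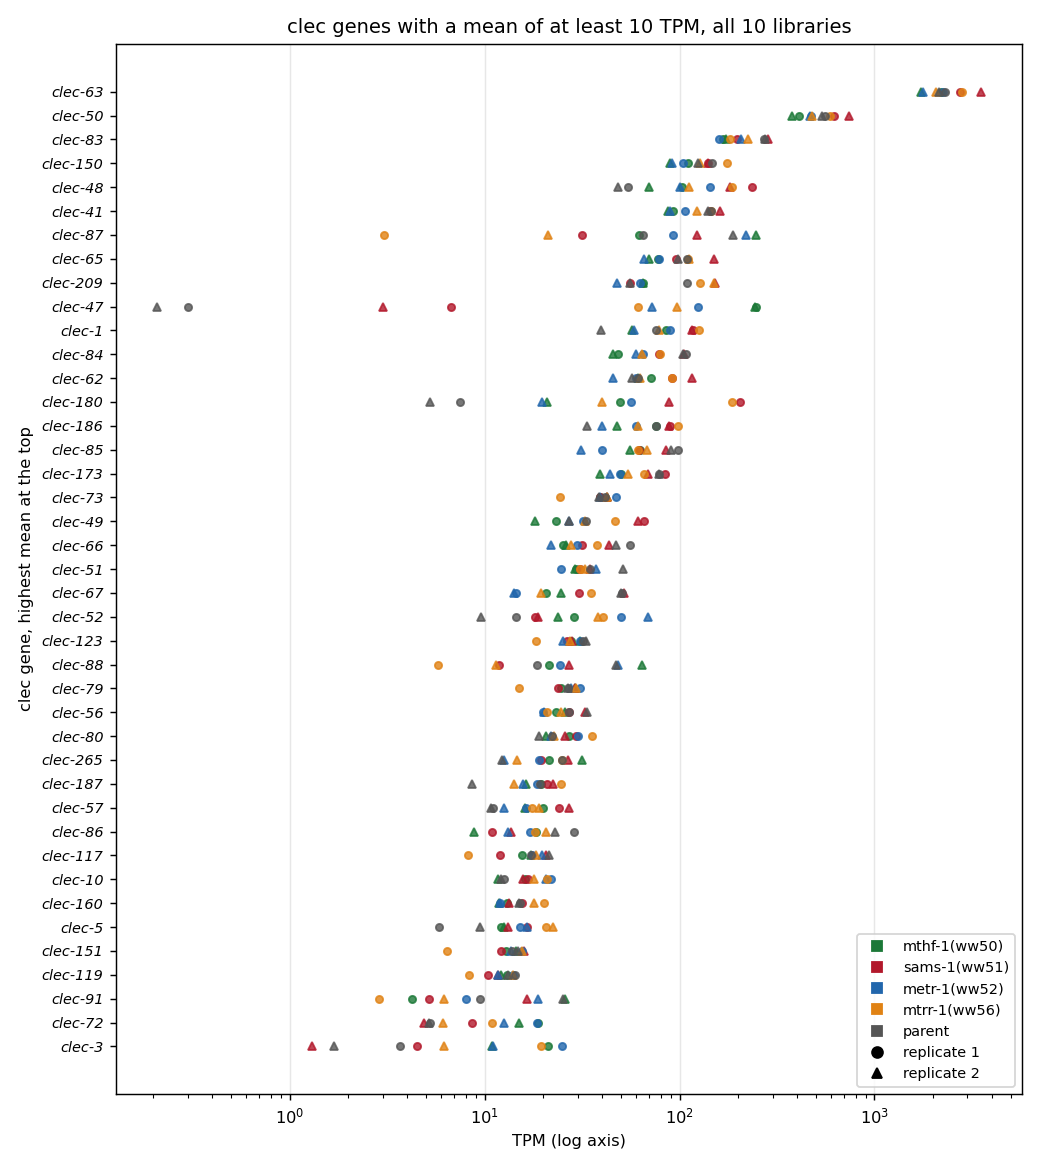
TPM (log axis) of the *clec* genes whose mean reached 10 TPM, in all 10 libraries, ordered by mean, with colour for the strain and shape for the replicate. *clec-63* lies alone above the rest, and *clec-47*, *clec-180* and *clec-87* have the widest spreads between libraries.

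The genes were clustered in the genome (WBcel235). Of the 95, 33 lie on chromosome V, 28 on IV, 20 on II, 6 each on I and III and 2 on X, and 60 lie in a run of *clec* genes no more than 10000 bp apart. *clec-62* to *clec-66* stand together on chromosome II from 12893062 to 12906644, with means from 2.78 TPM (*clec-64*) to 2353 TPM (*clec-63*), so that neighbours in a run differed widely in level. Exons of 19 members overlap another gene, and with no strand setting stated, reads of overlapping genes could be exchanged. *clec-209* is annotated as 2 copies on chromosome V, 108 kb apart, that had identical TPM in every library (47.8 to 152.4 TPM each). The values of the copies cannot be separated, and they count as 2 of the 95 members.

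Most *clec* genes did not pass the test in any mutant. Those that passed were mostly higher than in the parent, as were the calls over all genes. With limma on log2(TPM + 1) over all 5 strains, 1 member was called in *mthf-1* (background 0.187% of all genes tested), 0 in *sams-1* (0.0763%), 2 in *metr-1* (0.291%) and 1 in *mtrr-1* (0.132%), all higher. The threshold for a call was an adjusted p (Benjamini-Hochberg) under 0.01 together with a change of more than 1.5-fold. Of the calls over all genes tested, 22 of 27 in *mthf-1*, 9 of 11 in *sams-1*, 36 of 42 in *metr-1* and 16 of 19 in *mtrr-1* were higher. For the mean of the 4 mutants 1 member was called (0.243%), and for *sams-1* against the mean of the other 3 mutants 0 were (0% of all genes). These calls came from 2 genes, *clec-47* and *clec-52*. An unadjusted p under 0.05 was found for 24 members in *mthf-1* (25.3%, against 11.9% of all genes tested), 22 in *sams-1* (23.2%, against 18.2%), 26 in *metr-1* (27.4%, against 12.5%) and 28 in *mtrr-1* (29.5%, against 25.96%). It was found for 28 members in the mean of the mutants (29.5%, against 19.5%) and for 26 in *sams-1* against the other 3 mutants (27.4%, against 7.94%). Limma's F test over the 4 mutants called 0 members (background 0.0277%), and 33 had an unadjusted p under 0.05 (34.7%, against 17.5% of all genes tested).

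Libraries of equal replicate number tended to deviate from their strain means in the same direction, and a fit with the replicate number as a block called more genes. It called 2 members in *mthf-1* (background 0.305%), 4 in *sams-1* (2.68%), 3 in *metr-1* (0.52%), 8 in *mtrr-1* (4.18%), of which 6 were higher (background 3.11%) and 2 lower (1.06%), and 5 for the mean of the mutants (3.19%). In all, 10 different members were called in at least 1 of these comparisons. The same count over all genes tested was not made, and *mtrr-1* alone called 4.18% of them. Without a test, 14 members had all 8 mutant libraries above both parent libraries (14.7%, against 12.9% of all genes tested), and 6 had all 8 below (6.32%, against 3.52%). The minimum let in 9 members with a parent mean under 1 TPM, *clec-47* among them, and 0 members with a mean under 1 TPM in all 4 mutants. It could thus add to the first count and not to the second. The median log2 fold change of the 95 genes was 0.03 in *mthf-1*, 0.11 in *sams-1*, 0.02 in *metr-1* and 0.21 in *mtrr-1*, where all genes had medians of 0.12, 0.04, 0.09 and 0.05. Single members varied more than that. In all 4 mutants 37 of the 95 (38.9%) were within 1.5-fold of the parent, against 62.8% of all genes tested. The comparisons with the parent share its 2 libraries.

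**Figure D2:**
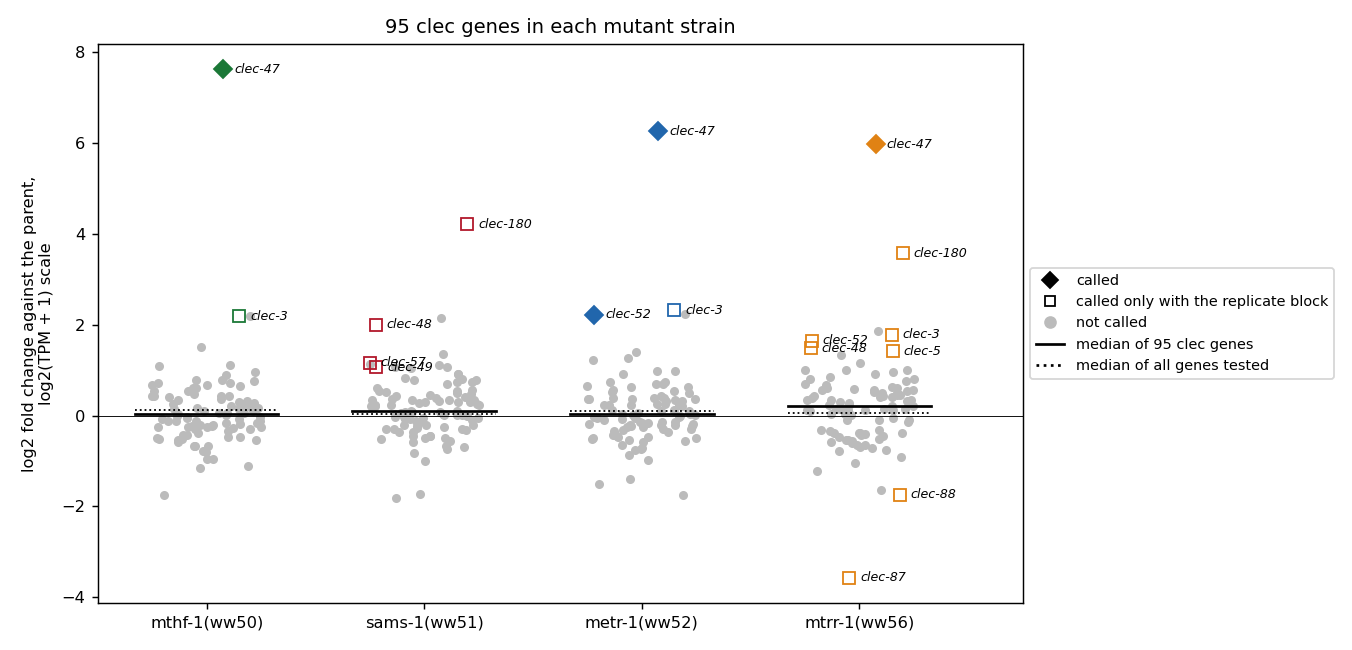
Log2 fold change against the parent, on the log2(TPM + 1) scale, of the 95 *clec* genes in each mutant. Filled diamonds were called, open squares were called only with the replicate block, and lines give the medians of the *clec* genes (solid) and of all genes (dotted). *clec-47* stands apart at 7.62, 6.26 and 5.97 in *mthf-1*, *metr-1* and *mtrr-1*, and both medians are within 0.21 of 0.

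*clec-47* was almost silent in the parent and abundant in 3 of the 4 mutants. This gene (WBGene00011668) lies on the plus strand of chromosome V from 15175759 to 15176324, overlaps no other gene's exons and has no *clec* gene within 10000 bp. It had 247 and 244 TPM in *mthf-1*, 6.75 and 3.01 in *sams-1*, 124 and 72.7 in *metr-1* and 61.6 and 97.6 in *mtrr-1*, against 0.30 and 0.21 in the parent. All 8 mutant libraries were above both parent libraries, and both *sams-1* libraries were below every other mutant library. The mean was 246 ± 1.90 TPM (SD, n = 2) in *mthf-1*, the third highest *clec* mean there after *clec-63* and *clec-50*, and 4.88 ± 2.64 TPM in *sams-1*.

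The log2 fold change of *clec-47* was 7.62 in *mthf-1* (limma with Benjamini-Hochberg adjustment, adjusted p = 0.00046), 6.26 in *metr-1* (0.0013) and 5.97 in *mtrr-1* (0.0016), all with a standard error of 0.38. In *sams-1* it was 2.15 (adjusted p = 0.077, and 0.020 with the replicate block) and was not called. The scale understates the change because the parent level is under the pseudocount of 1 TPM, and a pseudocount of 0.1 gave 9.45, 8.08, 7.78 and, in *sams-1*, 3.71. The difference between *sams-1* and the mean of the other 3 mutants was -4.46 (SE 0.31, limma adjusted p = 0.027, and 0.038 with the block), which missed the threshold. Over the 4 mutants, limma's F test gave an adjusted p of 0.012, and 0.0099 with the block. Its call in *mthf-1* held with any 1 library left out. The call in *metr-1* was lost without *metr-1* replicate 1 (adjusted p = 0.0101, limma) or either parent library (0.0167 and 0.0177), and the call in *mtrr-1* without either library of *mthf-1*, *mtrr-1* or the parent (0.0106 to 0.0234). For the mean of the 4 mutants the log2 fold change was 5.50 (SE 0.30, limma adjusted p = 0.00070), and that call was lost without parent replicate 1 (0.0167) or 2 (0.0164). *clec-47* passed the minimum through the mutants alone, as its mean in the parent was under 1 TPM. The summed TPM of cuticle and molting genes was highest in replicate 1 of *sams-1* (7647) and *mtrr-1* (7889), where *clec-47* had 6.75 and 61.6 TPM, and their part in the *clec-47* values was not tested.

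*clec-52* was called in *metr-1*. The gene (WBGene00015052, chromosome IV from 8167164 to 8168760) had 28.8 and 23.8 TPM in *mthf-1*, 18.1 and 18.8 in *sams-1*, 50.3 and 68.8 in *metr-1* and 40.5 and 38.2 in *mtrr-1*, against 14.6 and 9.59 in the parent. All 8 mutant libraries were above the parent libraries, with *metr-1* highest and *sams-1* lowest among the mutants. The log2 fold change in *metr-1* was 2.22 (SE 0.22, limma with Benjamini-Hochberg adjustment, adjusted p = 0.0080), but the gene was not called with any 1 of the 10 libraries left out (adjusted p from 0.0223 to 0.0625). In *mtrr-1* it was 1.65 (limma adjusted p = 0.031, and 0.0084 with the block), in *mthf-1* 1.08 (0.11) and in *sams-1* 0.60 (0.23). Its neighbour *clec-51*, on the same strand, had 24.8 to 37.3 TPM in mutants, against 34.6 and 51.5 in the parent, and a mean log2 fold change over the mutants of -0.43 (limma adjusted p = 0.27).

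*clec-3* resembled *clec-47* in its low level in *sams-1*. It had 21.04 and 10.9 TPM in *mthf-1*, 4.49 and 1.3 in *sams-1*, 25.1 and 11.1 in *metr-1* and 19.5 and 6.19 in *mtrr-1*, against 3.67 and 1.69 in the parent. *mthf-1*, *metr-1* and *mtrr-1* lay above the parent, *sams-1* overlapped it, and replicate 1 was higher in all 5 strains. Log2 fold changes were 2.19, 2.32 and 1.78 in those 3 mutants, with a standard error of 0.69, and 0.00 in *sams-1*. The calls in the 3 mutants needed the replicate block (limma adjusted p = 0.0078, 0.0047 and 0.0049, against 0.29, 0.25 and 0.17 without it). The difference of *sams-1* from the other 3 mutants was -2.09 (limma adjusted p = 0.42, and 0.038 with the block) and was not called. Exons of *clec-3* (chromosome II from 3017468 to 3019907) overlap those of C41H7.2.

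*clec-48* and *clec-180* had their highest strain mean in *sams-1*, although *mtrr-1* replicate 1 exceeded *sams-1* replicate 2 for both and neither passed limma's F test over the 4 mutants (adjusted p = 0.24 and 0.39, and 0.023 and 0.042 with the block). *clec-48* (chromosome V from 18158026 to 18159614) had 103 and 69.6 TPM in *mthf-1*, 236 and 182 in *sams-1*, 144 and 100 in *metr-1* and 185 and 112 in *mtrr-1*, against 54.2 and 48.2 in the parent. *clec-180* (chromosome IV from 7568893 to 7573766) had 49.5 and 20.9, 205 and 88.4, 56.4 and 19.6, and 185 and 39.9 TPM in the mutants in the same order, against 7.52 and 5.27 in the parent. For both genes every mutant library was above the parent and replicate 1 exceeded replicate 2 in all 5 strains. In *sams-1* the log2 fold change was 2.00 (SE 0.31) for *clec-48* and 4.21 (SE 0.85) for *clec-180*, with limma adjusted p-values of 0.066 and 0.089, and 0.0029 and 0.0035 with the block. In *mtrr-1* it was 1.48 and 3.58, also called only with the block (0.0043 for both). Summed cuticle and molting genes had the same replicate order in every strain, and 15 of the 16 were above the parent in all 8 mutant libraries. Their part in these results was not tested.

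**Figure D3:**
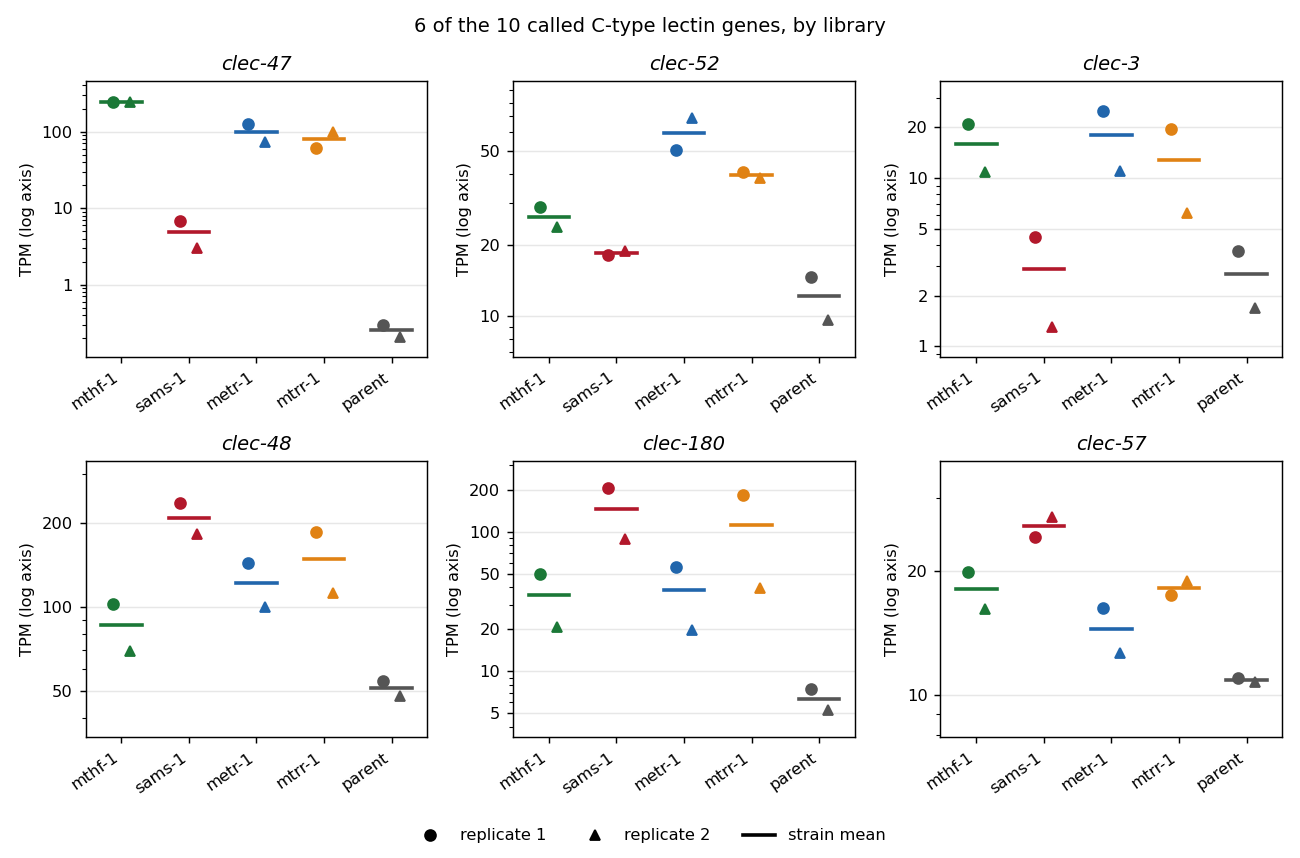
TPM (log axis) of 6 of the 10 *clec* genes called in at least 1 comparison, without or with the replicate block, in each library (circles replicate 1, triangles replicate 2, bars strain means). By strain mean, *clec-47*, *clec-52* and *clec-3* are lowest among the mutants in *sams-1*, whereas *clec-48*, *clec-180* and *clec-57* are highest there.

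Called with the block alone were also *clec-57* and *clec-49* in *sams-1* and *clec-5* in *mtrr-1*. *clec-57* had 24.2 and 27.1 TPM in *sams-1*, against 11.01 and 10.8 in the parent, and 12.6 to 19.9 in the other mutants, so that all mutant libraries were above the parent. Its log2 fold change in *sams-1* was 1.16 (limma adjusted p = 0.048, and 0.0094 with the block). *clec-49*, required for resistance to *Serratia marcescens*, had 65.9 and 61.5 TPM in *sams-1*, against 32.97 and 27.1 in the parent. It was below the parent in *mthf-1*, at 23.4 and 18.2 TPM, and overlapped it in *metr-1* (32.1 and 27.0) and *mtrr-1* (46.6 and 32.9). Its log2 fold change in *sams-1* was 1.06 (limma adjusted p = 0.085, and 0.0053 with the block). *clec-50*, next to it on chromosome V, had 619 and 737 TPM in *sams-1*, against 556 and 536 in the parent, a log2 difference of 0.31 (limma adjusted p = 0.30). *clec-5* had 20.8 and 22.4 TPM in *mtrr-1*, against 5.85 and 9.46 in the parent, and was above the parent in all mutants. Its log2 fold change in *mtrr-1* was 1.42 (limma adjusted p = 0.044, and 0.0096 with the block). *clec-90*, which was not called, was also above the parent in all mutants, at 6.01 to 8.27 TPM, against 5.3 and 5.28.

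*clec-87* and *clec-88* fell in *mtrr-1*, with calls that needed the replicate block. *clec-87* had 61.9 and 248 TPM in *mthf-1*, 31.4 and 123 in *sams-1*, 93.1 and 218 in *metr-1* and 3.05 and 21.1 in *mtrr-1*, against 65.1 and 188 in the parent. *clec-88* had 5.74 and 11.5 TPM in *mtrr-1*, against 18.6 and 47.1 in the parent, and 11.9 to 63.9 in the other mutants. Replicate 2 was higher in all 5 strains for both genes, and both *mtrr-1* libraries were below both parent libraries. The log2 fold change in *mtrr-1* was -3.57 for *clec-87* (SE 1.12, limma adjusted p = 0.12, and 0.0036 with the block) and -1.74 for *clec-88* (SE 0.71, limma adjusted p = 0.18, and 0.0043 with the block). *clec-87* also differed among the 4 mutants in limma's F test with the block (adjusted p = 0.0087, background 0.25%), but not without it (0.25, background 0.0277%). *clec-91* was also higher in replicate 2 in all 5 strains and below the parent in *mtrr-1*, with 2.89 and 6.16 TPM, against 9.44 and 25.2. It was not called in *mtrr-1* (log2 fold change -1.65, limma adjusted p = 0.28, and 0.022 with the block). The exons of all 3 overlap another gene (*iars-2*, *ctsa-4.1* and ZK858.8).

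Summed oocyte genes were likewise lower in *mtrr-1* than in the parent and higher in replicate 2, though not in the same order over all libraries. They were at 101 and 381 TPM in *mtrr-1*, against 664 and 1296 in the parent, and higher in replicate 2 in all 5 strains. Summed sperm genes were lowest, at 5468 TPM, in *mtrr-1* replicate 1, but *mtrr-1* replicate 2, at 14505 TPM, lay within the parent range of 14386 to 17128. Their part in the lower *clec-87*, *clec-88* and *clec-91* was not tested. Over the whole group, 10 of the 95 members were higher in replicate 2 in all 5 strains (10.53%, against 18.6% of all genes tested) and 19 were higher in replicate 1 (20.0%, against 11.4%).

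**Figure D4:**
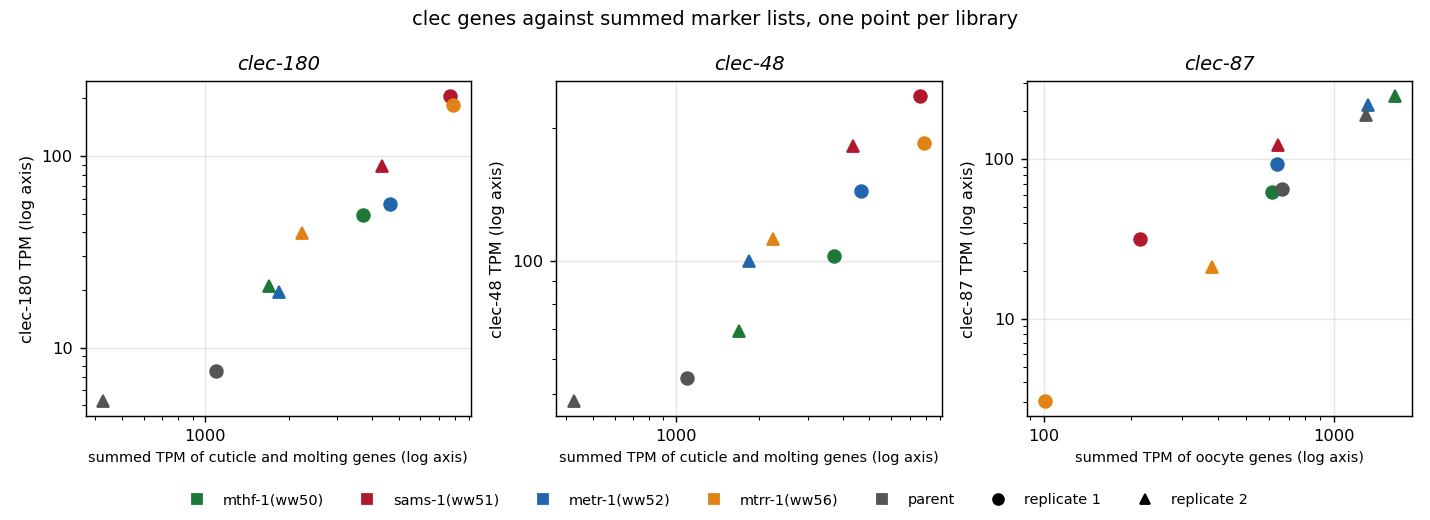
TPM of *clec-180*, *clec-48* and *clec-87* (log axis) against the summed TPM of cuticle and molting genes (left and centre) or oocyte genes (right, log axes), with 1 point per library. The parent libraries are lowest on both axes for *clec-180* and *clec-48*, and *mtrr-1* replicate 1 is lowest on both axes for *clec-87*.

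*clec-85* and *clec-67*, known targets of the p38 MAP kinase pathway of PMK-1, had lower mean values in all 4 mutants than in the parent, and neither was called. Members with a known role went both ways, and *clec-47*, *clec-52*, *clec-61* and *clec-7* had higher mean values in all 4 mutants. *clec-7* was low (1.14 to 4.64 TPM in mutants, against 0.48 and 1.49 in the parent), and each mutant overlapped the parent. *clec-85* had 62.8 and 55.5 TPM in *mthf-1*, 61.9 and 85.6 in *sams-1*, 39.9 and 31.1 in *metr-1* and 61.6 and 68.1 in *mtrr-1*, against 97.7 and 90.8 in the parent. All 8 mutant libraries were below the parent, and *metr-1* was lowest (log2 fold change -1.39, SE 0.19, limma adjusted p = 0.024). *clec-67* had 20.6 and 24.8, 30.6 and 51.95, 14.5 and 14.2, and 35.1 and 19.5 TPM in the same order of mutants, against 50.7 and 49.95 in the parent. Replicate 2 of *sams-1* overlapped the parent, and the other 7 mutant libraries were below it. In *metr-1* the log2 fold change was -1.74 (SE 0.32, limma adjusted p = 0.065).

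The run of *clec-80* to *clec-85* on chromosome IV (2823746 to 2855456) did not move as a unit. *clec-84* and *clec-83* had mean log2 fold changes over the 4 mutants of -0.68 (limma adjusted p = 0.062) and -0.47 (0.19), and neither passed the test. *clec-80* had 20.8 to 35.5 TPM in the mutants, against 22.1 and 19.04 in the parent. *clec-82* had 1.19 to 3.09 TPM in the mutants, against 0.76 and 0.87 in the parent. It passed the minimum through the mutants alone, so its higher values there are no separate support. *clec-80*, *clec-82* and *clec-84* were chosen after their values were seen. *clec-66*, at the end of the run of *clec-62* to *clec-66*, had 21.9 to 43.4 TPM in the mutants, against 55.5 and 47.4 in the parent, with a mean log2 fold change of -0.76 (limma adjusted p = 0.092), and *clec-62* to *clec-65* had values from -0.18 to 0.28. *clec-86* on chromosome X had 8.82 to 20.7 TPM in the mutants, against 28.6 and 22.9 in the parent (-0.76, limma adjusted p = 0.17). The other 2 genes of at least 5 TPM with all mutant libraries below the parent, *clec-123* and *clec-153*, had mean differences of -0.29 and -0.42 (limma adjusted p = 0.37 and 0.47). Summed intestinal genes were also lower in 7 of the 8 mutant libraries than in both parent libraries, and their part was not tested.

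**Figure D5:**
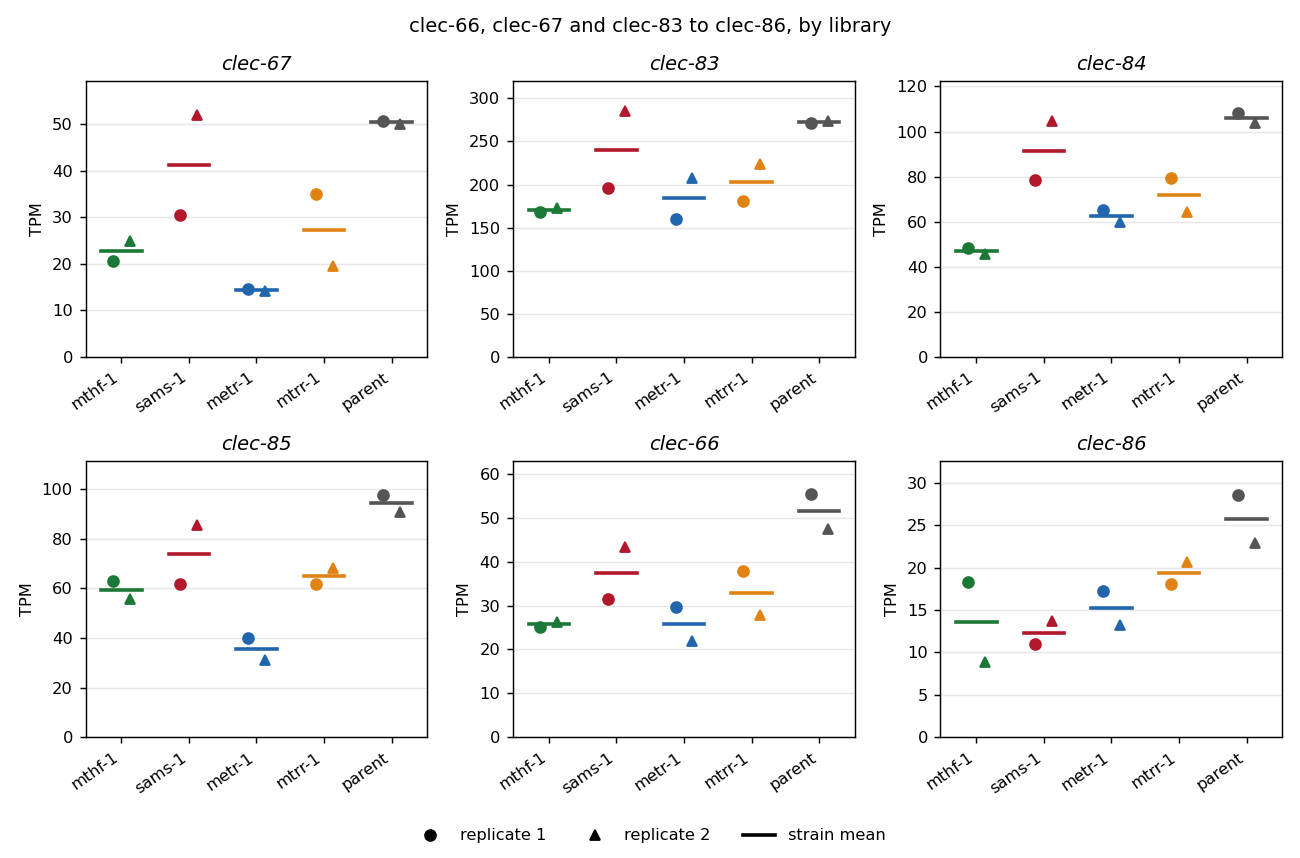
TPM of *clec-66*, *clec-67* and *clec-83* to *clec-86* in each library (circles replicate 1, triangles replicate 2, bars strain means). The parent is at or near the top in each panel, and replicate 2 of *sams-1* reaches the parent level for *clec-67*, *clec-83* and *clec-84*.

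Other members with known parts in infection showed no call. *clec-41*, *clec-4* and *clec-42*, which act in the response to *Bacillus thuringiensis*, had mean log2 fold changes over the 4 mutants of -0.31, -0.11 and 0.16 (limma adjusted p = 0.19, 0.71 and 0.75). *clec-60*, induced by *Staphylococcus aureus*, had 3.36 and 4.13 TPM in *mthf-1*, 1.56 and 4.27 in *sams-1*, 1.05 and 0.69 in *metr-1* and 1.55 and 1.13 in *mtrr-1*, against 2.19 and 2.63 in the parent. It was above the parent in *mthf-1* and below it in *metr-1* and *mtrr-1*, with no call. Its neighbour *clec-61* had 2.19 to 4.35 TPM in the mutants, against 1.04 and 1.24 in the parent, and a mean log2 fold change of 0.98 (limma adjusted p = 0.046). *clec-39*, which like *clec-49* acts against *Serratia marcescens*, was listed at 0 in 8 libraries and at most at 0.04 TPM. *clec-70* stayed below the minimum at a mean of 0.686 TPM, and was listed at 0 in both parent libraries and at 2.35 and 1.92 TPM in *mthf-1*.

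Immune regulator and antimicrobial effector genes were read from lists. Of 41 immune regulators tested, among them PMK-1 pathway, DBL-1 and transcription factor genes, limma called 0 in each of the 4 mutants. An unadjusted p under 0.05 was found for 9 regulators in *mthf-1* (21.95%, against 11.9% of all genes tested), 10 in *sams-1* (24.4%, against 18.2%), 9 in *metr-1* (21.95%, against 12.5%) and 14 in *mtrr-1* (34.1%, against 25.96%), each with a higher value than in the parent. With the block 1 regulator was called in *mtrr-1* (2.44%, below the 4.18% of all genes tested). This was *ikb-1*, with 13.2 and 11.5 TPM there, against 4.40 and 4.43 in the parent. The gene had 7.13 to 11.6 TPM in the other mutants, so that all 8 mutant libraries were above the parent. Without a test, 12 of the 41 regulators had that pattern (29.3%, against 12.9% of all genes tested). All 8 libraries were below the parent for 0 regulators (against 3.52%). Antimicrobial effector genes (lysozymes, saposin-like, caenacin and infection response genes) numbered 53 among the genes tested. In *mthf-1* 3 were called higher and 1 lower (7.55%, background 0.187%). In *metr-1* it was 4 higher and 1 lower (9.43%, background 0.291%), and in *mtrr-1* 2 higher and 0 lower (3.77%, background 0.132%). In *sams-1* 0 effectors were called (background 0.0763%). An unadjusted p under 0.05 was found for 20 effectors in *mthf-1* (37.7%, against 11.9% of all genes tested) and 21 in *sams-1* (39.6%, against 18.2%). It was found for 24 in *metr-1* (45.3%, against 12.5%) and 21 in *mtrr-1* (39.6%, against 25.96%). With the block 4 were called in *mthf-1* (7.55%, background 0.305%), 7 in *sams-1* (13.2%, background 2.68%), 7 in *metr-1* (13.2%, background 0.52%) and 5 in *mtrr-1* (9.43%, background 4.18%). The lysozyme gene *lys-4* had 999 and 856 TPM in *mthf-1*, 819 and 642 in *sams-1*, 912 and 865 in *metr-1* and 974 and 740.1 in *mtrr-1*, against 88.9 and 146 in the parent. The infection response gene *irg-5*, another PMK-1 target, had 3.32 and 3.92, 14.0 and 18.0, 5.54 and 4.14, and 41.8 and 30.02 TPM in the same order, against 131 and 65.8 in the parent. All mutant libraries were above the parent for *lys-4* and below it for *irg-5*, with mean log2 fold changes of 2.88 and -3.05 (limma adjusted p = 0.0022 and 0.0048). No naming rule covered these effectors, which were chosen after their values were seen. Another infection response gene, *irg-4*, had 21.3 and 22.3 TPM in *mtrr-1*, against 23.9 and 19.8 in the parent. In the other mutants *irg-4* had 3.74 to 8.67 TPM.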

How the data were processed

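RNA was sequenced from 2 biological replicates of each of 5 strains. The authors aligned 100 bp paired-end reads with Bowtie2 to WormBase WS271 and deposited 1 table of TPM per gene and library, estimated with RSEM; sequencing depth cannot be recovered from TPM. Gene symbols and WBcel235 coordinates came from an annotation holding 92.6% of the table's transcript names. Values were fitted as log2(TPM + 1) with limma 3.58.1 in R 4.3.3, for 14418 genes whose mean reached 1 TPM. The model held a mean per strain and a trended prior variance, and p-values were adjusted by Benjamini-Hochberg over those genes. Tests of single comparisons were two-sided, and the F test has no direction. The members, gene lists and tests were chosen with earlier results of these data known.

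Named genes are those called with or without the replicate block, the 8 highest by mean, those of at least 5 TPM with all mutant libraries on one side of the parent, the 5 with the largest F among mutants, the 3 on each side of the minimum, and those with a listed role. Differences between replicate 1 and 2 correlated between all 10 pairs of strains (0.166 to 0.736), so the numbers were taken as pairing, from the data alone. P-values rest on 2 libraries per strain. Alternatives were another pseudocount, filters, scalings, no trend, the block, a looser cutoff, fits with the parent alone and each library left out. Protein and promoter sequences were not analysed here. The fit was tested on simulated data, and figures were drawn with Python 3.11.15 and matplotlib 3.10.9.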

Additional observations from a re-analysis of the deposited data

Results flagged for a closer look

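2 members differed among the 4 mutants in limma's F test when the replicate number was a block. *clec-87* had a Benjamini-Hochberg adjusted p of 0.00866 and was lowest in *mtrr-1*, and *clec-47* had 0.00986 and was lowest in *sams-1*. Without the block these were 0.253 and 0.0122, and neither passed.

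In some named members, both libraries of 1 mutant lay above both parent libraries and both libraries of another mutant lay below them. None passed limma's F test over the 4 mutants. The members *clec-160*, *clec-54*, *clec-239* and *clec-205*, which no naming rule covered, had such a pattern too. Its share over all genes tested was not computed. *clec-50* was above the parent in *sams-1* and below it in *mthf-1* and *metr-1* (adjusted p = 0.169). *clec-49* was above it in *sams-1* and below it in *mthf-1* (0.0881), as was *clec-17* (0.445). *clec-65* was above it in *mtrr-1* and below it in *mthf-1* and *metr-1* (0.229). *clec-166* was above it in *metr-1* and *mtrr-1* and below it in *sams-1* (0.161). *clec-60* was above it in *mthf-1* and below it in *metr-1* and *mtrr-1* (0.229).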

How the results depend on the processing

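No gene changed direction in a comparison that called it without or with the block, but the members' median changed sign under some alternatives. With the replicate block the counts of members called were 2 in *mthf-1*, 4 in *sams-1*, 3 in *metr-1*, 8 in *mtrr-1*, 5 for the mean of the mutants, 0 for *sams-1* against the other mutants and 2 for the F test. With an adjusted p cutoff of 0.05 they were 2, 1, 4, 3, 4, 1 and 1. Over all 14418 genes tested, 115, 53, 157, 99, 185, 1 and 63 were called at that cutoff, in the same order. The count in *metr-1* was 1 with no filter (32 of all 21477 genes), median-ratio scaling (30 of 14418) or quantile normalization (28 of 14418). It was 0 there and in *mtrr-1* when each mutant was fitted with the parent alone, where 0 of all genes were called. With no filter, *clec-47* was called for *sams-1* against the other mutants (1 member, beside 8 of all 21477 genes). With 1 library left out, calls in *metr-1*, *mtrr-1* and the mean could be lost, as given above for *clec-47* and *clec-52*. Over all genes tested, each such fit also called fewer genes in those comparisons than the full fit. A lone library was then assumed to vary like the others.

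The median log2 fold change of the members turned negative with a filter at 5 TPM in *mthf-1* (-0.095), *metr-1* (-0.12) and the mean (-0.073), with quantile normalization in *mthf-1* (-0.11), *metr-1* (-0.082) and the mean (-0.046), and with median-ratio scaling in *mthf-1* (-0.062) and *metr-1* (-0.041). In *mtrr-1* it was 0.059 with quantile normalization and 0.32 with a pseudocount of 0.1. Quantile normalization put the median of all genes at 0.01 in *mthf-1*, where it was 0.12 without. With 1 library left out the members' median lay between -0.052 and 0.15 in *mthf-1*, 0.055 and 0.22 in *sams-1*, -0.11 and 0.11 in *metr-1*, 0.10 and 0.36 in *mtrr-1*, -0.038 and 0.15 for the mean, and 0.09 and 0.22 for *sams-1* against the other mutants. The causes were not tested.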
